A study of Mus musculus with 8 samples.

Results

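The genes described here are 46 genes of the liver's collagen matrix and of the stellate cells that lay it down, listed by name and found in full among the 35975 genes to which the deposited transcripts could be assigned. They were measured in liver RNA of 8 C57BL/6 mice (C57BL/6J in the study's methods). The study bought males and females 8 to 10 weeks old, and neither its methods nor the labels give the sex of these 8. A catheter in the portal vein, fed by an osmotic pump at 0.25 µL per hour, delivered either normal saline alone (n = 4) or 4-HPAA (4-hydroxyphenylacetic acid, a phenolic acid made by gut bacteria) at 55 mM in normal saline (n = 4) for 2 weeks. All mice of both groups had the surgery and its analgesics and were housed singly afterwards, so the comparison asks what the metabolite in the infusate changed and holds no unoperated liver. Libraries were made with a directional mRNA kit and read as paired ends of 100 bases, and the authors deposited kallisto's estimated count of every transcript, which sums to between 29559978 and 30673398 per library.

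Hepatic stellate cells sit between hepatocytes and the sinusoidal endothelium, store vitamin A when quiescent, and are the main collagen-producing cells of the injured liver. When activated they take on contractile filaments, respond to platelet-derived growth factor and transforming growth factor β, and secrete fibrillar collagens together with the enzymes that fold, trim and cross-link them. Other matrix of the liver has other sources: hepatocytes make plasma fibronectin and much type XVIII collagen, and sinusoidal endothelium contributes basement membrane collagen.

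In none of these genes did the difference between the groups pass a test against the spread between the mice. Of the 46 genes, 43 had at least 10 estimated counts in every library and were tested (quasi-likelihood F test of edgeR, p adjusted by Benjamini-Hochberg over all 12883 genes tested). None of the 43 had an adjusted p under 0.05, against 0 of the 12883 genes (0%). None had an unadjusted p under 0.05 either, where 225 of all genes tested did (1.75%), and DESeq2, which passed 2 of all genes (0.0155%), passed 0 of the 43. In 0 of the 43 genes did every library of 1 group lie above every library of the other, against 154 of all genes (1.20%). The 3 genes left untested were Lox, Mmp2 and Timp1. The log2 fold changes, always 4-HPAA minus normal saline, ran from -0.46 for Acta2 to 0.43 for Hgf, with a median of 0.04 (0.001 over all genes tested), 28 of them above 0 and 15 below. The adjusted p was 1.00 for each of the 43 genes by edgeR, and 30 had a log2 fold change smaller than its own standard error.

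**Figure D1:**
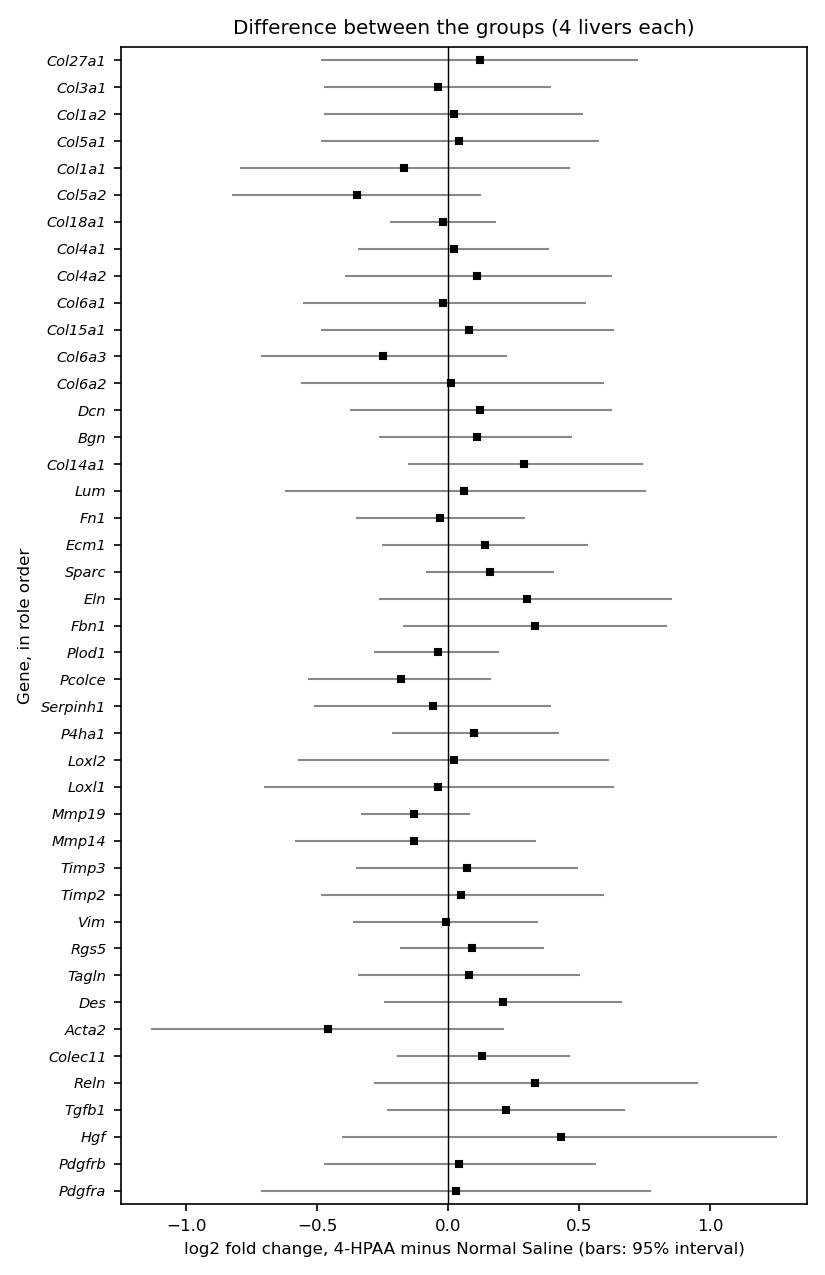
Log2 fold change of each of the 43 tested genes, 4-HPAA minus normal saline (4 livers each), on the x axis, with the genes in role order on the y axis; squares are edgeR estimates and bars their 95% intervals. Every bar crosses 0, from Acta2 at -0.46 to Hgf at 0.43.

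The precision differed from gene to gene. The standard errors ran from 0.09 to 0.37 with a median of 0.21. For Col18a1 the 95% interval of the log2 fold change reached only from -0.22 to 0.18, and for Plod1 from -0.28 to 0.19, while for Acta2 it reached from -1.13 to 0.21 and for Hgf from -0.40 to 1.25. In RNA of whole liver, fewer cells of a type and less RNA per cell cannot be told apart.

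The libraries differed from one another in these genes along another line, described here after the values had been seen. Both libraries numbered 4, 1 of each group, were low. The 46 genes together held 0.364%, 0.325%, 0.32% and 0.279% of the matched counts in normal saline replicates 1 to 4 and 0.342%, 0.351%, 0.338% and 0.249% in 4-HPAA replicates 1 to 4. Most of these counts came from Fn1 and Col18a1, with 54063 and 30857 of 110899 in normal saline replicate 1. The lowest of the 8 libraries was numbered 4 in 33 of the 43 tested genes (76.7%), against 33.1% of all genes tested. These 2 libraries were the 2 lowest in 20 of the 43 (46.5%, against 11.4% of all genes) and the 2 highest in none (8.91% of all genes). Normal saline replicate 1 was the highest library in 21 of the 43 (48.8%, against 12% of all genes). The genes are not independent here, since each liver gives a value to all of them. With both libraries numbered 4 left out, an alternative added after the values were seen, 0 of 44 genes tested were called, and 28 log2 fold changes lay above 0 and 16 below (median 0.05). The split of directions rested on single livers. Without normal saline replicate 1 it was 37 above 0 and 6 below, without 4-HPAA replicate 4 it was 36 and 8, and without normal saline replicate 4 it turned to 15 above and 28 below.

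Markers of sinusoidal endothelial and Kupffer cells were also low in both libraries numbered 4. The summed level of 9 sinusoidal endothelial markers was 183 CPM (counts scaled to a common library size by the TMM method) in normal saline replicate 4 and 168 in 4-HPAA replicate 4, against 220 to 253 and 228 to 285 in the others, and 8 of the 9 had their lowest library among these 2. Of 8 Kupffer cell markers, 7 had their lowest library there, with sums of 89 and 82.6 CPM against 106 to 281 and 130 to 237. The 106 CPM was normal saline replicate 1, so the Kupffer cell markers shared only the low end of the line. For 8 hepatocyte markers the libraries numbered 4 held the highest sums, 134111 and 133434 CPM, against 102727 to 121367 in the others. Alb, which encodes albumin, made up most of each sum, and without it the other 7 markers summed to 33319 and 36539 CPM in these libraries, against 36146 in normal saline replicate 1 and 34427 in 4-HPAA replicate 1. Of the 8, 5 had their highest library among those numbered 4 and 1 its lowest. Of 17 further stellate cell markers, all with counts, 12 had their lowest library among those numbered 4. Their summed level did not follow the line, with 124 CPM in normal saline replicate 4 and 121 in 4-HPAA replicate 4, and the lowest sum in normal saline replicate 2 at 116 CPM. Lrat, which esterifies vitamin A for storage, was low there at 8.004 and 8.499 CPM (9.09 to 16.9 in the others). The lowest library was numbered 4 for 10 of 12 portal fibroblast, 5 of 7 mesothelial and 5 of 9 smooth muscle markers. It was so for 3 of 7 bile duct, 0 of 6 red blood cell and 0 of 7 neutrophil and lymphocyte markers. Among the pathway lists below it was so for 9 of 11 basement membrane and 10 of 22 transforming growth factor β genes. For collagen modification it was 5 of 16, for other proteases and inhibitors 4 of 12 and for platelet-derived growth factor ligands 1 of 4. All genes of these lists had counts, and in each list 0 genes passed the test between the groups, as among all 12883 genes tested. The part of cell composition in the low values was not tested.

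**Figure D2:**
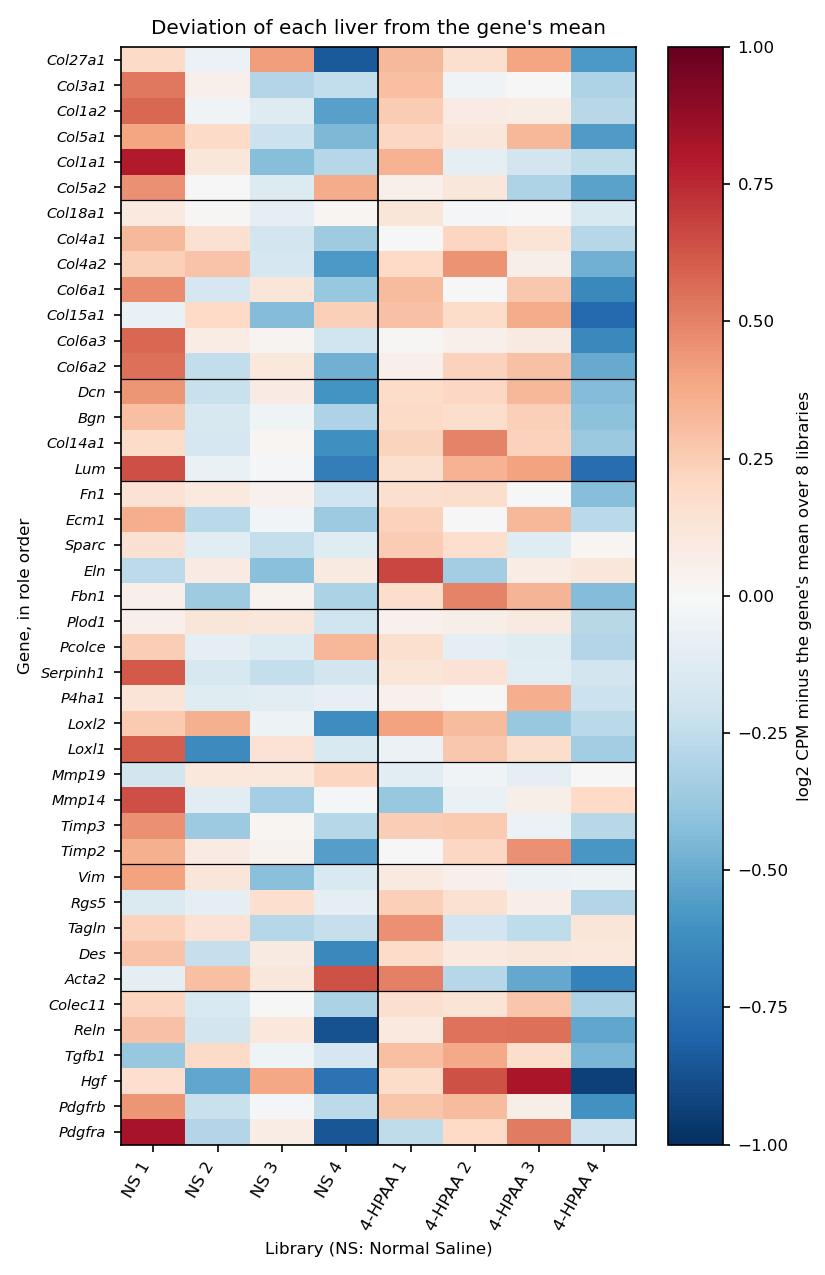
Heat map of the log2 CPM of each tested gene (y axis, in role order, lines between roles) minus its mean over the 8 libraries (x axis, 4 normal saline then 4 4-HPAA); red is above and blue below the mean. The columns of both libraries numbered 4 are mostly blue, being lowest in 33 of 43 genes, and that of normal saline replicate 1 mostly red.

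Per length, fibronectin and type XVIII collagen made up most of the RNA of the 46 genes. Levels were compared between genes as TPM, in which estimated counts are divided by annotated transcript length and scaled to the same sum in each library. Fn1 stood first at a mean of 454 TPM over the 8 libraries (SD 43.8) and Col18a1 second at 312 (SD 22.1), and together they held between 60.4% and 68.1% of the TPM of the 46 genes in each library. Ecm1 (89.8 TPM, SD 13.8) and Dcn (79.3, SD 20.9) followed and did not differ from each other beyond the SD, then Bgn (33.3, SD 6.63). Counted on the longest coding transcript, Fn1 was at 345 TPM and Col18a1 at 298, and Dcn (88.1) stood above Ecm1 (74.3). Mmp19, Colec11, Plod1 and Sparc came next between 24.9 and 20.4 TPM, with no neighbours among them apart beyond the SD. In all, 2 genes were above 100 TPM, 13 between 10 and 100, 21 between 1 and 10 and 10 below 1. Of the 45 pairs of neighbours in the order of levels, 10 differed beyond the SD. Genes for the classical fibrillar collagens were low, with Col3a1 at 4.46 TPM, Col1a2 at 2.45 and Col1a1 at 0.688. Reln, at 15.2 TPM over all its transcripts, was at 5.53 when counted on its longest coding transcript, and its noncoding transcript Reln-205, 891 bases long, held 9.85% to 17.5% of its counts.

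**Figure D3:**
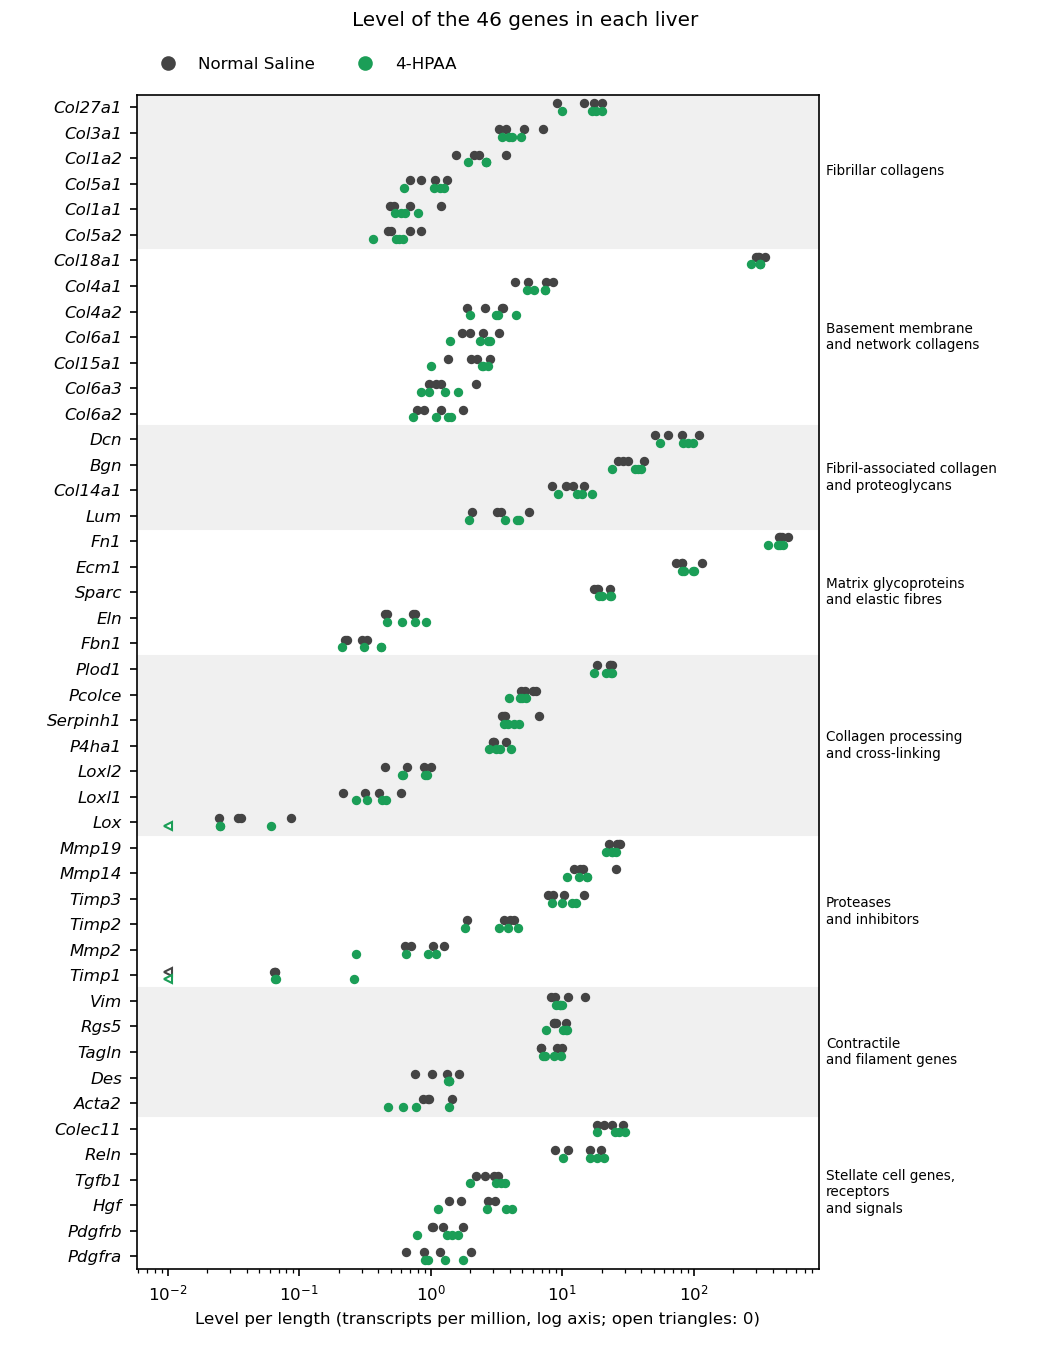
Level per length of each of the 46 genes (y axis, grouped by role) in each liver, in TPM on a log x axis; grey points are normal saline and green points 4-HPAA livers, and open triangles mark a level of 0. Fn1 and Col18a1 stand at the right above 100 TPM, Timp1 and Lox at the left near 0, and the colours overlap in every row.

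The fibrillar collagens form the tensile fibres of scar, with type I built from 2 chains encoded by Col1a1 and Col1a2. Of these 6 genes, 3 had log2 fold changes above 0 and 3 below, with a median of -0.01 and 0 called. Col1a1 measured 4.2, 2.61, 1.77 and 1.96 CPM in normal saline replicates 1 to 4 and 3.07, 2.23, 2.1 and 1.99 CPM in 4-HPAA replicates 1 to 4, the order in which all values below are given. One saline liver, replicate 1, was high, and the groups overlapped (log2 fold change -0.17 ± 0.28 SE). Without that liver the log2 fold change of Col1a1 was 0.15. Its partner Col1a2 measured 11.3, 7.38, 6.92 and 5.19 CPM with normal saline and 9.04, 8.04, 7.96 and 6.23 with 4-HPAA (0.02 ± 0.22 SE). Col3a1, the type III chain, stood at 17.1, 12.2, 9.64 and 9.96 CPM and 14.6, 11.6, 11.9 and 9.55 CPM (-0.04 ± 0.19 SE). For both, saline replicate 1 was again the highest library, and the groups overlapped. Col5a2, whose type V chain sets the diameter of type I fibrils, had the smallest p of the 43 genes, 0.127 before adjustment and 1.00 after it by edgeR. It measured 2.85, 2.06, 1.87 and 2.68 CPM with normal saline and 2.13, 2.23, 1.65 and 1.4 with 4-HPAA, a log2 fold change of -0.35 ± 0.21 SE, and 2 saline livers lay within the range of the 4-HPAA livers. Col27a1, a fibrillar collagen best known from cartilage, was the most abundant of the 6 at 15.8 TPM. Its values were 55.5, 46.7, 65 and 27.2 CPM and 60.8, 54.2, 63.9 and 32.6 CPM (0.12 ± 0.27 SE), lowest in the 2 libraries numbered 4. Col5a1 ranged from 3.36 to 6.6 CPM over the 8 livers with a log2 fold change of 0.04 ± 0.23 SE.

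The 250 bases before the start of Col3a1 and of Reln are shown because these genes moved with the fibrillar and with the stellate cell genes, and because the 2 windows differ in make-up. RefSeq windows on GRCm38.p6 were at hand for 32 of the 46 genes. In the windows below the capitals mark TATAAA in the first and GGGCGG in the second, searched on both strands, with no other motif overlapping them.
Col3a1, chr1:45311288-45311537, plus strand: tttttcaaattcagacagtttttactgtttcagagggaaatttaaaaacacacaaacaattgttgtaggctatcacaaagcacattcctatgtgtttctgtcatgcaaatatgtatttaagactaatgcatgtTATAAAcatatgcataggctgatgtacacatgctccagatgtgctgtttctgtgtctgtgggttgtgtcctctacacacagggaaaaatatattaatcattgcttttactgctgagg
Reln, chr5:22344706-22344955, minus strand: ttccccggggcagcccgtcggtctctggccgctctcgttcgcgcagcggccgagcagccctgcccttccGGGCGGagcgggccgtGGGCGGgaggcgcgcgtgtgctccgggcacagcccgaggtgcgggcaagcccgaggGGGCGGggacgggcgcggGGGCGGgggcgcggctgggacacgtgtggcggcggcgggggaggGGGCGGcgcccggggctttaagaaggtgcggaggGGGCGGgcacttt
The Col3a1 window was 35.2% G and C with 0 CpG, and the Reln window 80% with 37 CpG. Over the 35 windows of the 32 genes the medians were 59.2% and 8 CpG, against 52.4% and 6 over all 32851 windows. GGGCGG was present in 60% of the 35 windows and 32.7% of all, TATAAA in 11.4% and 12.4%, and CCAAT in 25.7% and 33.8%.

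Basement membrane and network collagens gave 4 log2 fold changes above 0 and 3 below among 7 genes, with a median of 0.01 and 0 called. Type IV collagen, the sheet-forming collagen of basement membranes, is built from the products of Col4a1 and Col4a2, which lie head to head on chromosome 8. Their annotated first exons overlap by 22 bases, shown in capitals in the 30 bases around both starts.
Col4a1 and Col4a2 starts, chr8:11312801-11312830 (GRCm38.p6), plus strand: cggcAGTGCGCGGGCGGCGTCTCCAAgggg
Col4a1 reads leftward from chr8:11312826 and Col4a2 rightward from chr8:11312805. Col4a1 measured 23.1, 20.5, 16.2 and 14.4 CPM with normal saline and 18.4, 21.4, 20.2 and 15.1 with 4-HPAA (0.02 ± 0.16 SE). Col4a2 measured 13.4, 13.9, 10.1 and 7.63 CPM and 13.1, 15.6, 11.9 and 8.15 CPM (0.11 ± 0.23 SE). Each gene was lowest in normal saline replicate 4 and next in 4-HPAA replicate 4, and in each the groups overlapped. Over the 8 livers the log2 CPM of the pair correlated with r = 0.92 (exact permutation test, two-sided, p = 0.00198, adjusted 0.00476 over 12 pairs) and rho = 0.90 (p = 0.00456, adjusted 0.0183).

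Type VI collagen forms beaded filaments close to cell surfaces from 3 chains. Col6a1 stood at 8.02, 5.11, 6.26 and 4.4 CPM and 7.16, 5.77, 6.96 and 3.64 CPM (-0.02 ± 0.24 SE). Col6a2, its neighbour 85.2 kb away on chromosome 10, stood at 4.23, 2.4, 3.08 and 2.03 CPM and 2.97, 3.37, 3.53 and 1.99 CPM (0.01 ± 0.26 SE). The pair was highest in saline replicate 1 and lowest in libraries numbered 4. Col6a3 measured 7.5, 5.28, 5.12 and 4.36 CPM with normal saline and 5.06, 5.2, 5.34 and 3.18 with 4-HPAA (-0.25 ± 0.21 SE), with 4-HPAA replicate 4 apart from its group. Col18a1, whose product releases endostatin, was the steadiest of the 43 tested genes, with a coefficient of variation of 6.1% over the 8 livers. Its CPM were 989, 932, 867 and 938 and 1002, 914, 925 and 832 (-0.02 ± 0.09 SE). Col15a1, a related basement membrane collagen, ranged from 3.29 to 7.38 CPM.

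The fibril-associated collagen and the small proteoglycans coat collagen fibrils and space them. All 4 had log2 fold changes above 0, between 0.06 and 0.29, and 0 were called. Col14a1, the fibril-associated type XIV collagen, measured 36.3, 28.4, 32.3 and 20.8 CPM with normal saline and 37.2, 45.1, 37.5 and 24.7 CPM with 4-HPAA. Of the treated livers 3 lay above all 4 saline livers and 4-HPAA replicate 4 lay among them (log2 fold change 0.29 ± 0.20 SE, unadjusted p 0.173, adjusted p 1.00 by edgeR). Decorin, encoded by Dcn, measured 113, 71.3, 88.2 and 54.9 CPM and 94.2, 95.9, 105 and 61.6 CPM (0.12 ± 0.22 SE). Lumican, encoded by Lum 47 kb from Dcn, measured 8.08, 4.91, 5.08 and 3.16 CPM and 5.76, 6.57, 6.83 and 3.01 CPM (0.06 ± 0.31 SE). Dcn and Lum had the highest rank correlation of the pairs tested below, 0.98. Biglycan, from Bgn on the X chromosome, stood at 59.1, 42.9, 46.5 and 38.8 CPM and 54.8, 54.2, 56.5 and 36.1 CPM (0.11 ± 0.16 SE), with 4-HPAA replicate 4 apart at the low end. In all 4 genes the 2 libraries numbered 4 were the lowest.

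Among the matrix glycoproteins and elastic fibre genes, 4 of 5 had log2 fold changes above 0 (median 0.16) and 0 were called. Fn1, which encodes fibronectin, measured 1733, 1687, 1621 and 1370 CPM with normal saline and 1754, 1778, 1574 and 1171 with 4-HPAA (-0.03 ± 0.14 SE). Sparc, a collagen-binding matricellular protein, stood at 30.1, 25, 23 and 24.9 CPM and 32.3, 30.5, 25 and 27.5 CPM (0.16 ± 0.11 SE). Of the treated livers 3 lay above 3 of the saline livers, and saline replicate 1 lay between them. Fbn1, the microfibril protein fibrillin-1, measured 1.89, 1.41, 1.87 and 1.44 CPM and 2.06, 2.6, 2.33 and 1.33 CPM (0.33 ± 0.23 SE), with 4-HPAA replicate 4 below every saline liver. Ecm1, extracellular matrix protein 1, known to hold transforming growth factor β in its latent form, measured 98.8, 63.6, 75.2 and 59.6 CPM and 90.2, 76.8, 96.8 and 63.6 CPM (0.14 ± 0.18 SE). Eln, the elastin gene, ranged from 0.853 to 1.89 CPM.

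Fibronectin RNA was also read by transcript, because activated stellate cells are known to include the alternative exons EIIIB and EIIIA that plasma fibronectin from hepatocytes lacks. The cassette exons of those sizes in the annotation, 273 and 270 bases, are printed here whole from the GENCODE M21 transcripts (GRCm38.p6), and both are coding.
Fn1 exon of 273 bases, chr1:71613763-71614035, minus strand: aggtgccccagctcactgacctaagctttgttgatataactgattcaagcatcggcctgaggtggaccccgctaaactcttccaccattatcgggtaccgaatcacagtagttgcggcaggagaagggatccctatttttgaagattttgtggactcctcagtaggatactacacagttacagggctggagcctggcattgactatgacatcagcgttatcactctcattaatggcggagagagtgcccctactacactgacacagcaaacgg
Fn1 exon of 270 bases, chr1:71603660-71603929, minus strand: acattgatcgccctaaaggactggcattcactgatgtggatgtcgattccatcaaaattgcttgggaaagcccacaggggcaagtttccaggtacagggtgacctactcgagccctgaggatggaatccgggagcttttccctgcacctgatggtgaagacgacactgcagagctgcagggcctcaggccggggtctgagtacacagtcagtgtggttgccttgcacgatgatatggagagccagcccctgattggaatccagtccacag
The exon of 273 bases was in 0.402% ± 0.25 of the counts of coding Fn1 transcripts that span it with normal saline and in 0.415% ± 0.0893 with 4-HPAA (SD, n = 4). By library these shares were 0.176, 0.296, 0.756 and 0.38% and 0.412, 0.317, 0.534 and 0.397%. The exon of 270 bases was in 3.11% ± 0.763 and 3.04% ± 1.15 (SD, n = 4), with shares by library of 3.15, 2.07, 3.29 and 3.91% and 2.2, 1.9, 3.88 and 4.17%. The groups overlapped for both exons, and the means differed by less than either SD. Transcripts that share most of their sequence divide reads by estimate, so these shares carry an error beyond the counting error.

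**Figure D4:**
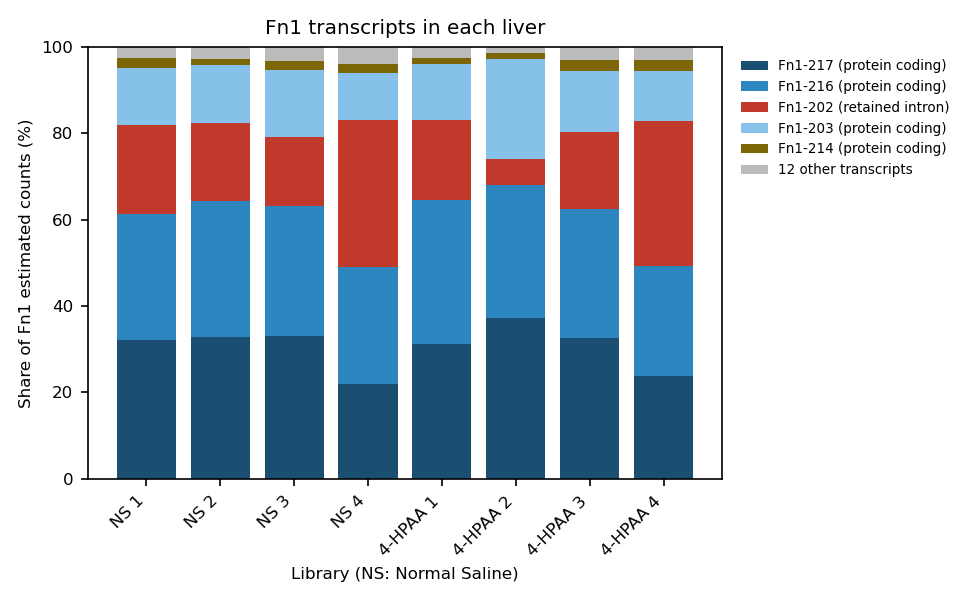
Share of the Fn1 estimated counts held by each transcript (y axis, %), stacked to 100%, in each library (x axis, NS is normal saline); blue and brown are coding transcripts, red is the retained-intron transcript Fn1-202 and grey the 12 other transcripts. The red part is 34.2% and 33.5% in the libraries numbered 4 and 5.98% in 4-HPAA replicate 2.

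The share of Fn1 counts in coding transcripts was 76.9, 79.4, 81.2 and 62.2% with normal saline and 79, 93.1, 79.5 and 63.7% with 4-HPAA. It was lowest in both libraries numbered 4 and highest in 4-HPAA replicate 2. Most of the rest was Fn1-202, a retained-intron transcript, at 16.1% to 34.2% with normal saline and 5.98% to 33.5% with 4-HPAA. Over all genes the share of counts in transcripts annotated as retained introns moved little, from 1.94% to 2.37%, and was 2.37% in normal saline replicate 4 and 1.94% in 4-HPAA replicate 4. Counted on coding transcripts, the log2 fold change of Fn1 was 0.05. For 17 of the 46 genes 1 transcript held over 90% of the counts in every library.

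The genes that fold, modify and cross-link procollagen gave 2 log2 fold changes above 0 and 4 below among 6 tested (median -0.04), with 0 called. Serpinh1, the collagen chaperone HSP47, measured 8.56, 4.97, 4.72 and 4.91 CPM with normal saline and 6.08, 6.17, 5.14 and 4.9 with 4-HPAA (-0.06 ± 0.20 SE). Saline replicate 1 stood apart, and was the liver that was also highest for Col1a1. P4ha1, a prolyl 4-hydroxylase subunit, measured 6.38, 5.35, 5.41 and 5.5 CPM and 6, 5.8, 7.51 and 5 CPM (0.10 ± 0.14 SE). Plod1, a lysyl hydroxylase, measured 42.9, 44.9, 44.9 and 36 CPM and 42.7, 43.1, 44 and 34 CPM (-0.04 ± 0.11 SE), lowest in both libraries numbered 4. Pcolce, which enhances cleavage of the procollagen C-propeptide, measured 5.74, 4.53, 4.4 and 6.08 CPM and 5.41, 4.5, 4.43 and 3.92 CPM (-0.18 ± 0.15 SE). It was highest in normal saline replicate 4. The cross-linking oxidases were scarce. Loxl1 ranged from 0.446 to 1.15 CPM and Loxl2 from 1.41 to 2.93, and Lox had 3, 2, 3 and 7 estimated counts with normal saline and 0, 2, 5 and 2 with 4-HPAA, too few for a fold.

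Proteases and their inhibitors, which turn matrix over, had 4 of 6 genes tested, with 2 log2 fold changes above 0 and 2 below (median -0.04), with 0 called. Mmp14, a membrane-anchored collagenase, measured 32.6, 19.4, 16.4 and 20.5 CPM and 16, 19.9, 21.7 and 24 CPM (-0.13 ± 0.21 SE), with saline replicate 1 high. Mmp19, a secreted metalloproteinase, measured 42.1, 51.4, 51.4 and 55.5 CPM and 44.1, 46.8, 44.7 and 48 CPM (-0.13 ± 0.09 SE). It ran against the other genes, being lowest in saline replicate 1 and highest in saline replicate 4. Timp1, an inhibitor of metalloproteinases that is strongly induced in fibrosis, was at the edge of detection, with 1, 1, 1 and 0 estimated counts with normal saline and 1, 0, 4 and 1 with 4-HPAA in libraries of about the same depth. The group means were 0.75 and 1.5 counts, both under the floor of 3 counts, and no fold is given. Mmp2, a gelatinase of activated stellate cells, had 47, 42, 33 and 25 estimated counts with normal saline and 52, 39, 28 and 9 with 4-HPAA. Its 9 counts in 4-HPAA replicate 4 put it under the minimum for testing. Timp2 ranged from 4.27 to 8.83 CPM and Timp3 from 22.9 to 40.5.

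Contractile and filament genes mark activated stellate cells, smooth muscle and pericytes. Of 5 genes, 3 had log2 fold changes above 0 and 2 below (median 0.08), with 0 called. Acta2, α-smooth muscle actin, had the lowest log2 fold change of all 43 genes, -0.46 ± 0.30 SE, with an unadjusted p of 0.154 (adjusted 1.00 by edgeR). Its values were 0.93, 1.24, 1.08 and 1.58 CPM with normal saline and 1.43, 0.8, 0.679 and 0.595 CPM with 4-HPAA, or 29, 36, 33 and 46 and 41, 24, 21 and 17 estimated counts. Of the treated livers 3 lay below every saline liver, and 4-HPAA replicate 1 lay second among all 8. Without 4-HPAA replicate 1 the log2 fold change was -0.79 and the groups did not overlap, which held for 1 of the 43 genes in that setting and 4.04% of all genes. Tagln, the smooth muscle protein transgelin, measured 6.44, 6.07, 4.49 and 4.67 CPM and 7.54, 4.8, 4.59 and 5.98 CPM (0.08 ± 0.19 SE), opposite in sign to Acta2. Of 9 further smooth muscle markers 5 could be tested, and all 5 had log2 fold changes below 0, between -0.46 and -0.08, with 0 called. Des, the desmin gene, measured 2.82, 1.96, 2.46 and 1.44 CPM with normal saline and 2.62, 2.47, 2.49 and 2.48 with 4-HPAA (0.21 ± 0.20 SE). The treated livers lay closer together than the saline livers, on 75, 74, 77 and 71 estimated counts. Vim, vimentin, measured 15, 12.4, 8.5 and 10.2 CPM and 12.1, 11.8, 10.9 and 11 CPM (-0.01 ± 0.16 SE). Rgs5, a pericyte regulator of G-protein signaling, measured 21.6, 22.4, 26.9 and 22.2 CPM and 28.2, 26.5, 24.9 and 19.5 CPM (0.09 ± 0.12 SE), and the groups overlapped for all 3.

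All 6 stellate cell genes, receptors and signals had log2 fold changes above 0, from 0.03 to 0.43 (median 0.18), and 0 were called. Reln, which encodes the secreted glycoprotein reelin and marks quiescent stellate cells in mouse liver, measured 41.5, 29.8, 36.4 and 18.6 CPM with normal saline and 36.4, 49.4, 49.7 and 23.6 CPM with 4-HPAA (0.33 ± 0.27 SE). The 2 highest values came from treated livers and the 2 lowest from the libraries numbered 4. Colec11, a collectin of the complement system, measured 23.6, 18.2, 20.3 and 16.2 CPM and 22.7, 22.3, 24.6 and 16.3 CPM (0.13 ± 0.15 SE). Pdgfrb, the receptor for platelet-derived growth factor B, measured 5.64, 3.53, 4.07 and 3.44 CPM and 5.03, 5.17, 4.3 and 2.69 CPM (0.04 ± 0.23 SE). Hgf, the hepatocyte mitogen that stellate cells secrete, had the largest log2 fold change and the largest standard error of the 43 genes (0.43 ± 0.37 SE), with values between 2.27 and 7.83 CPM. Pdgfra ranged from 2.4 to 7.85 CPM, and Tgfb1, the profibrotic cytokine, from 2.66 to 4.8.

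Further genes of these pathways gave no calls either, which was settled beforehand, since edgeR called 0 of all 12883 genes tested. Of 22 further genes of the transforming growth factor β pathway 17 were tested, with 11 log2 fold changes above 0, 6 below and 0 called. Of 16 further genes of collagen modification and secretion 15 were tested, 9 above 0 and 6 below. Of 11 laminin, nidogen and related basement membrane genes 10 were tested, 4 above 0 and 6 below. Of 12 other matrix proteases and inhibitors 6 were tested, 4 above 0 and 2 below, and so were all 4 platelet-derived growth factor ligands, 1 above 0 and 3 below. In each of these lists 0 genes were called. Markers of other collagen-producing cells were present at low levels in both groups, with 12 portal fibroblast markers summing to 48.9 to 56.2 CPM with normal saline and 43.5 to 51.2 with 4-HPAA, and 7 mesothelial markers to 1.82 to 7.66 and 2.13 to 7.64. The 9 smooth muscle markers summed to 11.1 to 13.1 CPM and 7.48 to 12.6 CPM, 7 bile duct markers to 23.5 to 45.6 and 24.1 to 38.2, and 7 neutrophil and lymphocyte markers to 1.89 to 3.26 and 1.59 to 3.2. For 6 red blood cell genes the sums were 251 to 2586 CPM with normal saline, highest in replicate 2, and 156 to 738 with 4-HPAA. In these lists, too, 0 genes were called.

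The matrix genes varied more between livers than genes at large, and they varied together. The median coefficient of variation over the 8 livers was 23.7% for the 43 tested genes, from 6.1% for Col18a1 to 42.3% for Hgf, against 12.2% for all genes tested, which were not matched for their counts. Over the 903 pairs of the 43 genes the median Pearson correlation of log2 CPM was 0.52, and 84.6% of the pairs were above 0. With each value taken from its group mean, these figures were 0.54 and 86%. The points share libraries, and the values are a description. Within roles the median was 0.93 for the fibril-associated collagen and proteoglycans, 0.76 for the stellate cell genes, 0.69 for the basement membrane and network collagens and 0.68 for the fibrillar collagens. It was 0.22 for the contractile genes and -0.14 for the proteases and inhibitors. Lum had the highest median correlation with the other genes, 0.78, and Mmp19 the lowest, -0.64, with Eln at -0.12 and Acta2 at -0.06.

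For a test, 13 pairs were taken that form 1 protein, lie side by side or share a role, and 12 could be computed, Timp1 having too few counts. Of the 12 pairs, 8 had an adjusted p under 0.05 (exact permutation tests over 8 libraries, two-sided) by r and by rho. These tests are against no correlation, while the median r over all 903 pairs of the 43 genes was 0.52. How many of those 903 pairs would pass was not computed, so the count does not set the chosen pairs apart from the others. The chains of type I and III collagen, Col1a1 and Col3a1, gave r = 0.96 (exact p = 0.000198, adjusted 0.00119) and rho = 0.90 (exact p = 0.00456, adjusted 0.0183). Dcn and Lum gave r = 0.96 (exact p = 9.92e-05, adjusted 0.00119) and rho = 0.98 (exact p = 0.000397, adjusted 0.00476). Reln and Colec11 gave r = 0.93 (exact p = 0.000645, adjusted 0.00258) and rho = 0.88 (exact p = 0.00724, adjusted 0.0214). The other pairs that passed were Col6a1 with Col6a2 (r = 0.92), Col14a1 with Dcn (0.91), Serpinh1 with Col1a1 (0.89) and Col1a1 with Col1a2 (0.84). Acta2 and Tagln gave r = 0.19 (exact p = 0.642), Pdgfrb and Des 0.50 (exact p = 0.217), Fn1 and Col1a1 0.52 (exact p = 0.179), and the genomic neighbours Col3a1 and Col5a2, 24.6 kb apart, 0.53 (exact p = 0.176).

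With the 2 libraries farthest from the median of the first gene left out, which were both libraries numbered 4 for 7 of the pairs, all 12 kept a positive sign with r between 0.15 and 0.91. None of the 12 then had an adjusted p under 0.05, over 6 libraries and a narrower range of the first gene. The values were 0.91 for Dcn and Lum (adjusted 0.0875, exact permutation test over 6 libraries), 0.84 for Col1a1 and Col3a1 (adjusted 0.0875), 0.82 for Reln and Colec11 (adjusted 0.1) and 0.76 for Col4a1 and Col4a2 (adjusted 0.16). Serpinh1 and Col1a1 stayed at 0.85 and Col6a1 and Col6a2 at 0.80, whereas Col14a1 and Dcn came to 0.67 and Col1a1 and Col1a2 to 0.44. For 3 of the pairs that had not passed r was higher over the 6 libraries, at 0.70 for Acta2 and Tagln, 0.81 for Pdgfrb and Des and 0.57 for Fn1 and Col1a1. With values taken from their group means over all 8 libraries, r was 0.97 for Dcn and Lum, 0.97 for Col1a1 and Col3a1, 0.93 for Reln and Colec11 and 0.92 for Col4a1 and Col4a2.

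**Figure D5:**
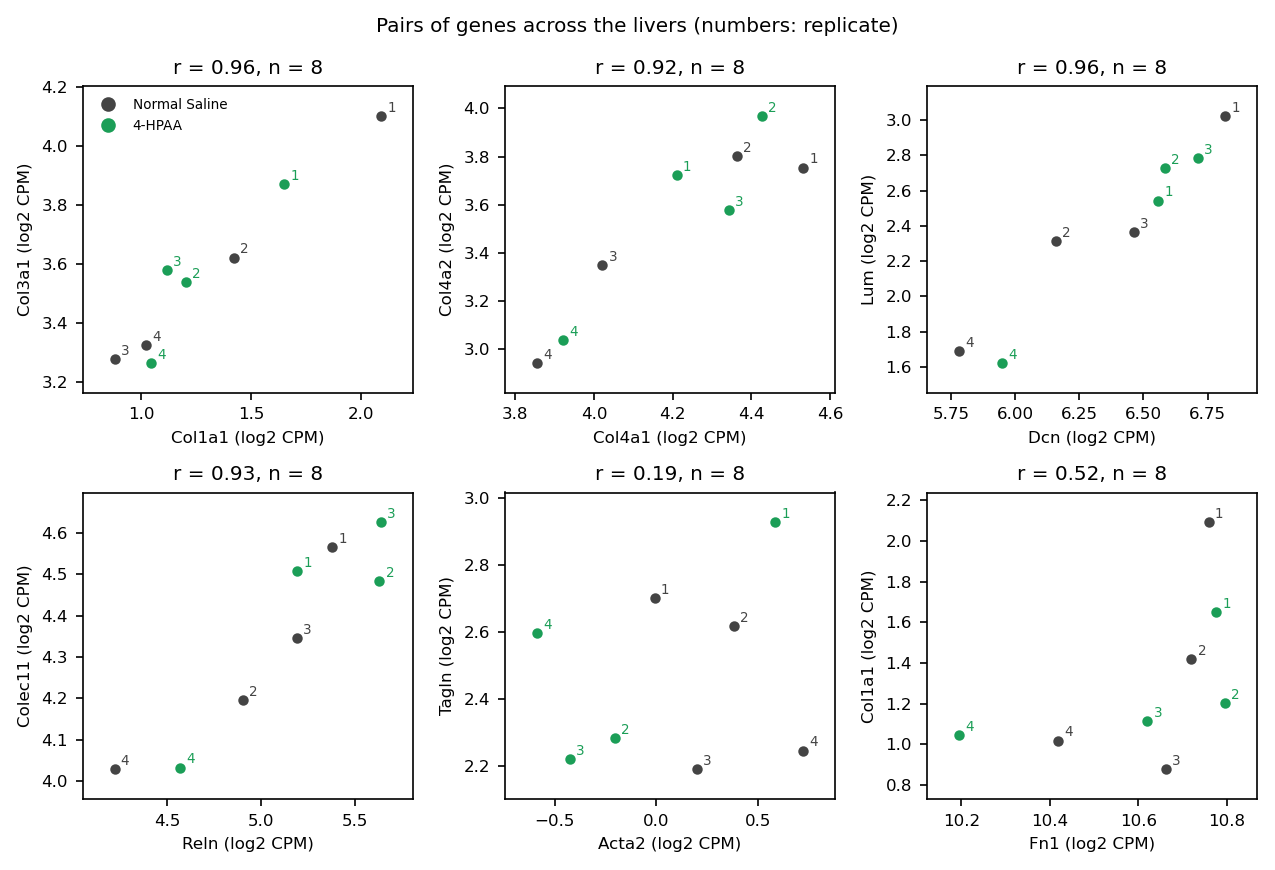
Log2 CPM of 6 pairs of genes in the 8 livers (1 gene on each axis, grey for normal saline, green for 4-HPAA, numbers for replicates), with Pearson's r above each panel. Col1a1 with Col3a1, Col4a1 with Col4a2, Dcn with Lum and Reln with Colec11 lie along a line (r of 0.92 to 0.96). Livers numbered 4 lie at its low end, joined by normal saline replicate 3 for Col1a1 with Col3a1. Acta2 with Tagln (0.19) and Fn1 with Col1a1 (0.52) scatter.

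Among all 12883 genes tested, those whose log2 CPM followed Col1a1 most closely over the 8 libraries were Gstt1 (r = 0.966), Col3a1 (0.964), Sesn1 (0.957), Nfia (0.951) and 9130019O22Rik (0.943). For Reln they were Rcn1 (0.984), Hspb1 (0.968), Tgfbr3 (0.968), Ccbe1 (0.964) and Col14a1 (0.964). These are the highest of many correlations over 8 points and are given as a description.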

How the data were processed

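Libraries came from livers of 4 saline-infused and 4 4-HPAA-infused mice. The authors ran kallisto on the reads (FastQC 0.11.9 and the build GRCm38.p6 are named in the submitters' processing notes) and deposited estimated counts per transcript for each library, not normalized and not pooled. By the study's methods the libraries were directional and kallisto ran with standard parameters, with no strand option named, so reads of overlapping genes on opposite strands, such as Fn1 and Apol7d, may not be told apart. Each column was matched to its mouse by name. The labels number the mice of each group but do not say how they were kept or handled, so p-values measure the spread between these livers.

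Counts of the transcripts of a gene were added up after GENCODE M21 (116728 of 119414 transcripts matched, 35975 genes; the others held 0.703% to 1.06% of a library) and rounded to whole numbers. The test was edgeR 4.0.16 in R 4.3.3 (quasi-likelihood F test, TMM, group only) over genes with 10 or more counts in each of the 8 libraries, with p adjusted by Benjamini-Hochberg and read at 0.05. Standard errors were obtained from the F statistic and the fold change, and the 95% interval uses its degrees of freedom. CPM are scaled by TMM, log2 CPM use a prior count of 2, and TPM use annotated transcript lengths. Floors of 3 counts cover counting error only. At this depth (29559978 to 30673398 counts a library), counting error weighs most in genes with few counts. Among the tested genes these include Acta2, with 17 to 46 counts a library.

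The genes and the lists of pathways and cell type markers were chosen with earlier results of these data known. Values in every library are given for the 2 genes of each role with the highest level per length, the 5 with the smallest p, the pairs and genes with a library apart; other genes get their range. Fits were repeated with limma-voom (limma 3.58.1) and DESeq2 1.42.0, and with RLE and total-count scaling, other filters, the replicate number as a block, coding or single transcripts and each library left out. The steps were tested on simulated data. Promoter windows are from RefSeq. Levels of metabolites in plasma and liver were not analysed here, and 1 gene of the marker lists is not reported by itself here.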

Additional observations from a re-analysis of the deposited data

Results flagged for a closer look

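In 7 of the 86 groups of 4 livers examined (43 genes in 2 groups) 1 liver stood apart from the other 3 by Dixon's test, where chance flags about 1 group in 20, or 4.3 groups. In 4-HPAA replicate 4 this held for Bgn at 36.1 CPM (54.22 to 56.52 in the other 3), for Plod1 at 34.03 CPM (42.73 to 43.97) and for Col6a3 at 3.183 CPM (5.063 to 5.338), low in each case. In normal saline replicate 1 it held for Serpinh1 at 8.56 CPM (4.724 to 4.974) and P4ha1 at 6.38 CPM (5.352 to 5.496), high in both. Rgs5 was high in normal saline replicate 3 at 26.87 CPM (21.58 to 22.37), and Des in 4-HPAA replicate 1 at 2.619 CPM, where the other 3 livers lay between 2.467 and 2.491. Before scaling, the 4-HPAA livers had 75, 74, 77 and 71 estimated counts of Des, so replicate 1 was not the highest by counts.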

How the results depend on the processing

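Of the 43 tested genes none had an adjusted p under 0.05 under any alternative run. Over all genes DESeq2 called 2, and leaving out 1 library called 0 to 1. Genes of the 43 with an unadjusted p under 0.05 numbered 2 with the replicate number as a block (Col14a1 and Reln, where 2.61% of all genes passed) and 0 to 4 with 1 library left out, the most without 4-HPAA replicate 4 (Tgfb1, Col14a1, Fbn1 and Hgf, 2.21% of all genes). Genes whose groups did not overlap numbered 0 to 2 with 1 library left out, where 2.45% to 4.04% of all genes did not overlap. Leaving out both libraries numbered 4 was an alternative chosen after seeing the data. There 1 gene had an unadjusted p under 0.05 (Col14a1, against 1.85% of all genes) and 2 did not overlap (Col14a1 and Fbn1, against 5.69% of all genes). The replicate numbers were not taken to pair the mice, since the labels do not say that they do. Correlations of same-numbered deviations ran from 0.0396 to 0.48 (mean 0.239), and 2 libraries of each group correlated best with their own number. The mean for other pairs, -0.0782, is no independent comparison, because deviations from a group mean cancel out within the group. These values do not settle whether the mice were paired. The median log2 fold change of the genes ran from -0.07 without normal saline replicate 4 (15 above 0, 28 below) to 0.19 without normal saline replicate 1 (37 above 0, 6 below), and was 0.16 without 4-HPAA replicate 4 (36 above 0, 8 below). Of the 12 pairs, 0 passed with the 2 farthest libraries left out, where 6 libraries remain, and all 12 kept their sign.

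Of the 33 named and tested genes 13 kept their sign under every alternative run, and 19 changed it without some library. The ranges of their log2 fold change with 1 library left out were Col1a1 -0.32 to 0.15, Col1a2 -0.13 to 0.27, Col3a1 -0.15 to 0.16, Col27a1 -0.07 to 0.29, Col4a1 -0.08 to 0.14, Col4a2 -0.03 to 0.26, Col6a1 -0.14 to 0.16, Col6a2 -0.13 to 0.24, Col18a1 -0.06 to 0.02, Lum -0.12 to 0.34, Dcn -0.03 to 0.32, Fn1 -0.10 to 0.08, Serpinh1 -0.14 to 0.19, P4ha1 -0.01 to 0.18, Plod1 -0.11 to 0.03, Mmp14 -0.25 to 0.12, Tagln -0.08 to 0.17, Vim -0.13 to 0.14 and Pdgfrb -0.06 to 0.22. With both libraries numbered 4 left out, Col1a2 (-0.04), Col6a1 (0.03), Col18a1 (0.03), Fn1 (0.02) and Tagln (-0.01) changed sign. On coding transcripts Col6a2 (-0.02), Fn1 (0.05) and Vim (0.03) did, and on the most abundant transcript Col6a2 (-0.01), Col18a1 (0.04), Fn1 (0.05), Pcolce (0.00) and Vim (0.06). Vim also did with limma-voom (0.02) and the replicate block (0.01). The cause was not tested. Levels of 7 genes, Fn1, Ecm1 and Reln among them, moved by more than their spread when counted on the longest coding transcript.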
